A study of Arabidopsis thaliana with 53 samples.

Results

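The regions described here are the 382 ATAC-seq peaks of wild-type seedling roots at 45 min of abscisic acid (ABA) that share no base with any peak of control roots. They were chosen by these 2 lists alone and make up 1.92% of the 19885 peaks of the 45 min list. They are called gained peaks below, which says only that the 45 min list holds them and the control list does not. ATAC-seq maps open chromatin, the stretches of DNA that the Tn5 transposase can reach in the nucleus.

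The study profiled nuclei sorted from transgenic Arabidopsis thaliana of the Col-0 strain that carry histone H2B fused to EGFP as a cell-type marker. The promoter that drives each marker is not given in the sources used here. Wild-type (WT) seedling roots were taken after 45 min, 2 h and 4 h on agar with 50 µM ABA, and after 4 h on agar with the ethanol vehicle as control. Roots of the abf1/2/3/4 mutant were taken at 45 min and 2 h of the same ABA treatment and after 4 h of vehicle. No root group had vehicle for 45 min or 2 h. In comparisons of these times with control roots, ABA and time on the agar therefore cannot be told apart. The mutant group titled 2 h carries 4 hours in its treatment time label, so its time is uncertain. Whole WT seedlings had 4 h of ABA or vehicle on agar. WT mesophyll cells and WT and abf1/2/3/4 guard cells came from rosettes sprayed with 50 µM ABA or vehicle for 4 h, and WT guard cells also from 24 h of ABA. WT guard cells from plants kept for 4 h at 100 ppm or 1000 ppm CO2 complete the series. Each of the 18 groups is deposited as 1 pooled peak list made from 2, 3 or 4 samples, 53 samples in all. The mutant root list at 45 min and both seedling lists came from 2 samples, both mesophyll lists from 4, and all others from 3.

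Because each group is 1 list, no difference between groups could be tested against replicates, and no p-value is given. Shares carry exact (Clopper-Pearson) 95% intervals, covering only counting error, with neighbouring peaks taken as independent. The lists held 15345 to 27514 peaks, and read depth is unknown from them. The 45 min root list, with 19885 peaks, was shorter than the control root list with 25753, the 2 h list with 27514 and the 4 h list with 25604. Among 12 root marker genes, 9 had a 45 min root peak and 11 a control root peak inside the gene or within 1500 bp, against 8 with a guard cell control peak and 5 with a mesophyll control peak. Among 6 guard cell markers, 6 had such a peak in control guard cells, 3 in control roots and 1 in control mesophyll. The 3 mesophyll markers had peaks in all 3 of these control lists, so they do not set the tissues apart.

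ABA is the hormone through which plants respond to drought and salt. It binds receptors of the PYR/PYL/RCAR family, which then inhibit clade A protein phosphatases (PP2Cs) and so release SnRK2 kinases. These kinases activate the ABF transcription factors, bZIP proteins that bind ABA-responsive elements in the promoters of induced genes and are missing in the abf1/2/3/4 mutant. Many genes of the pathway, the PP2Cs among them, are themselves induced by ABA and act as feedback.

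The gained peaks were mostly weak and narrow peaks of the 45 min list. The authors' −log10 p, their measure of how far a peak stands above background, ran between 3.38 and 8.08 with a median of 4.65, while the 19503 other 45 min peaks had a median of 6.99. By this value 376 of the 382 (98.43%) stood below the middle of the list, and the best placed stood at rank 7284. Their widths ran between 100 and 1088 bp with a median of 271 bp, against 390 bp for the other peaks. Of the 382, 273 had a −log10 p under 5, 79 between 5 and 6, and 30 of 6 or more. The 3492 other 45 min peaks with −log10 p under 5 (median width 282.5 bp) fall in the class that holds most gained peaks, and are given beside them below as weak other peaks.

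The choice of members depended on where the lists end. The gap between a gained peak and the nearest control peak was 104 bp at the least, 633.5 bp at the median and 36514 bp at the most. In 97 members (25.39%) the gap was under 300 bp, and in 136 (35.6%) it was over 1000 bp. The members closest to the rule's limit, each 104 bp from a control peak, lay near AT1G77730, near GTE7, which encodes a bromodomain protein, and near ARA12, which encodes a subtilisin-like protease. Just outside the rule, a peak at chr5:894385-894880 near AT5G03545 shared 14 bp with a control peak, and the next shared 99 bp. When both lists were cut by rank to the length of the 45 min list, the same rule took 1620 peaks in place of 382.

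Later WT root lists held almost all gained peaks. At 2 h 365 of 382 had a peak sharing at least 1 base (95.5%, 93.0 to 97.4%), and at 4 h 360 (94.2%, 91.4 to 96.4%). Both later lists held 350, only the 2 h list 15, only the 4 h list 10, and neither list 7. The 273 gained peaks with −log10 p under 5 were found in 94.5% (2 h) and 93.0% (4 h), against 93.8% and 90.0% of the weak other peaks and 98.6% and 97.5% of all other 45 min peaks. Gained peaks were thus found again about as often as other peaks of that class, within counting error. Most of the later peaks avoided the control list too. Of the 365 found at 2 h, 311 (85.2%) had a 2 h peak that shares no base with a control peak, and of the 360 found at 4 h, 293 (81.4%) did. These counts use the same control list as the rule and are not independent of it.

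Within the 2 h list, the counterparts of gained peaks had a median −log10 p of 8.17, next to 8.11 over the whole list, and 185 of 365 stood above its middle. Within the 4 h list the median was 8.78, next to 8.60 over the whole list, and 188 of 360 stood above its middle. For gained peaks with −log10 p under 5 at 45 min, 39.1% of counterparts stood above the middle of the 2 h list and 43.3% above that of the 4 h list. For the weak other peaks these shares were 19.7% and 15.7%. These are positions within single lists of different lengths and show no change over time.

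The 7 gained peaks in neither later list included a peak in HAI1, a clade A PP2C gene, at chr5:23894486-23894974. Its −log10 p was 5.02 at 45 min, and it was found in the ABA lists of seedling (3.74), mesophyll (6.41), guard cells at 4 h (16.04) and at 24 h (15.85), and in the guard cell list at 100 ppm CO2 (6.75). It was found in no control list. The other 6 lay nearest to AT1G56460, CIPK1, AT4G13615, AT2G10440, AT4G16146 and AT3G62950. CIPK1 encodes a kinase regulated by calcineurin B-like calcium sensors. These 6 were found in at least 1 list made without added ABA, such as the abf1/2/3/4 control root list for AT1G56460, CIPK1 and AT4G13615.

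**Figure D1:**
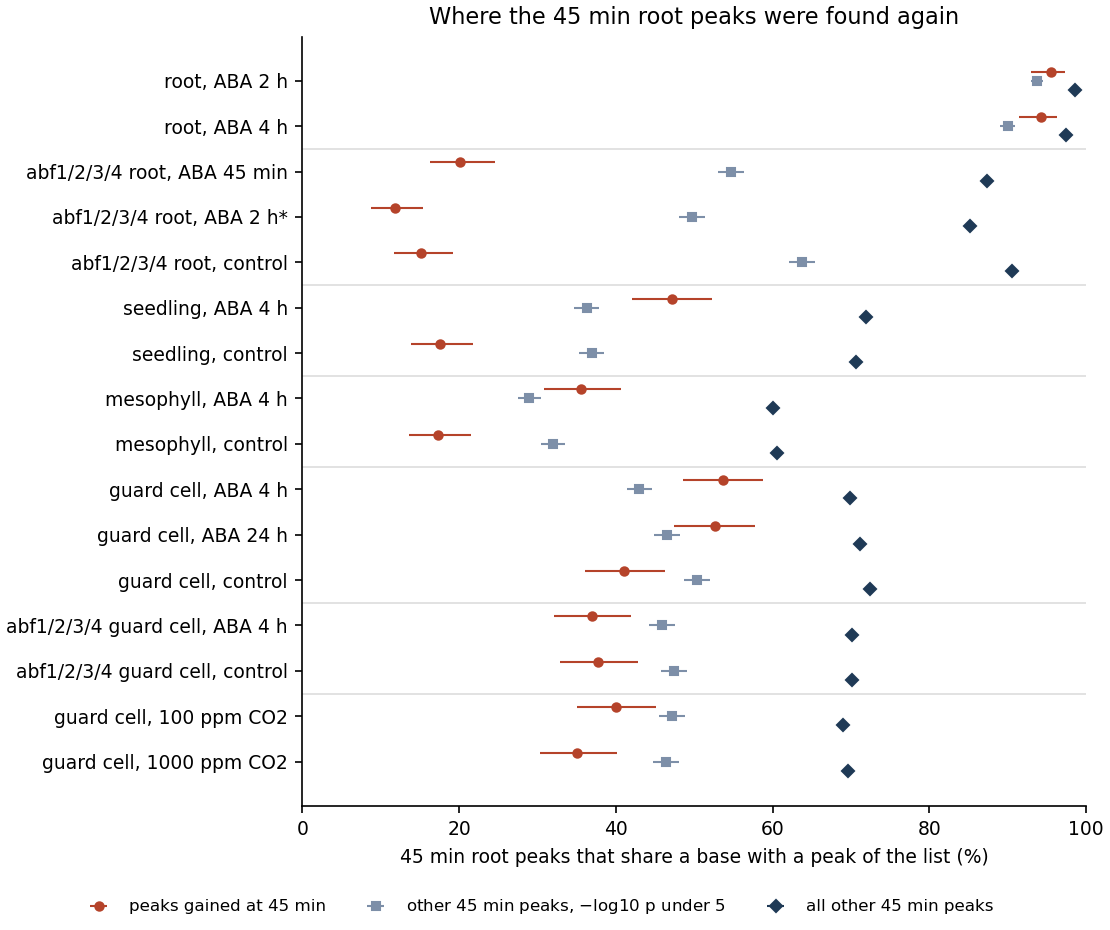
Percent of 45 min root peaks that share at least 1 base with a peak of each list (horizontal axis), for the 382 gained peaks, the 3492 other peaks with −log10 p under 5 and all 19503 other peaks; bars are exact 95% intervals and the asterisk marks the mutant group whose labels give both 2 h and 4 hours. Gained peaks reached 95.5% in WT root at 2 h and stayed at 20.2% or less in the 3 mutant root lists.

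Roots of the abf1/2/3/4 mutant held few gained peaks under any treatment. The mutant list at 45 min of ABA held 77 (20.2%, 16.2 to 24.5%), the 2 h list 45 (11.8%, 8.72 to 15.4%) and the control list 58 (15.2%, 11.7 to 19.2%). Absent from all 3 lists were 283 of the 382 (74.1%), and 24 were in all 3. Among the weak other peaks, 54.7%, 49.7% and 63.8% were found in these 3 lists in the same order, while the gained peaks with −log10 p under 5 gave 19.8%, 10.3% and 15.8%. Members were chosen for their absence from WT control roots, and the mutant control list comes from the same tissue and vehicle. The mutant lists are also shorter than the WT lists at 2 h and 4 h, with 18116, 17705 and 19277 peaks. Settings that shorten or filter the lists also change which peaks are members, so their values do not give the part of list length, which was not tested on its own. With all 18 lists cut to 15345 peaks by rank, 581 of 1182 members (49.2%) were found in the 45 min mutant list, with the 45 min and control WT lists at equal length 638 of 1620 (39.4%), and with −log10 p of at least 5 in every list 19 of 193 (9.84%).

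Within the mutant root the gained peaks leaned to ABA at 45 min. The 45 min list alone, without the mutant control list, held 32 members, the control list alone 13, and both 45. The 32 are 8.38% of the members, and the same pattern was found for 1.89% of all 45 min root peaks. Of the members found in just 1 of the 2 lists, 71.1% (55.7 to 83.6%) were in the ABA list, against 26.2% of the other 45 min peaks. Among gained peaks with −log10 p under 5 it was 66.7% (48.2 to 82.0%), against 28.2% of the weak other peaks. The lean did not hold in 2 settings: it was 43.1% with the WT lists at equal length and 43.8% (7 of 16 peaks) with −log10 p of at least 5 in every list. In the group titled 2 h, 19 members were in the ABA list alone (4.97%, against 2.38% of all 45 min peaks) and 32 in the control list alone. That gives 37.3% (24.1 to 51.9%), against 23.4% of the other peaks. Among gained peaks with −log10 p under 5 it was 29.7%, next to 28.0% of the weak other peaks. Both mutant comparisons use the same mutant control list, which comes from the same tissue and vehicle as the WT control list of the rule. Members were chosen for absence from that WT list, and the other peaks for presence in it. This choice bears on the shares given here, and by how much was not tested.

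The gained peak with the best value in the mutant at 45 min was 1 of the 3 nearest to a control peak, at chr1:29217265-29217660, with AT1G77730 as the nearest gene. It had a −log10 p of 5.04 in WT root at 45 min, 24.7 at 2 h and 19.5 at 4 h. In the mutant root it had 13.4 at 45 min and 12.6 in the group titled 2 h, and it was absent from the mutant control root. It was also in the guard cell ABA lists of WT (12.8 at 4 h, 17.1 at 24 h) and of the mutant (12.4), and in neither guard cell control list. It was chosen as a member close to the rule's limit and is a single region.

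Outside the root, gained peaks were found more often in ABA lists than in control lists of the same WT tissue. In whole seedlings, which contain roots, the ABA list held 180 (47.1%) and the control list 67 (17.5%). In mesophyll the ABA list held 136 (35.6%) and the control list 66 (17.3%). In guard cells the 4 h ABA list held 205 (53.7%), the 24 h ABA list 201 (52.6%) and the control list 157 (41.1%). Absent from all 3 control lists were 192 of the 382 (50.3%), against 38.4% of the weak other peaks and 18.1% of all other 45 min peaks. At least 1 of their 4 h ABA lists held 256 (67.0%), against 55.9% and 80.8%. Among gained peaks with −log10 p under 5 the absent share was 50.2%, and the share in at least 1 ABA list 62.6%.

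Counted peak by peak, the imbalance was large in WT. In seedlings 118 members were in the ABA list alone, 5 in the control list alone and 62 in both. In mesophyll the numbers were 73, 3 and 63, and in guard cells at 4 h they were 66, 18 and 139. The members in the ABA list alone were 30.9% of all members in seedlings, 19.1% in mesophyll and 17.3% in guard cells, against 5.81%, 4.57% and 3.93% of all 45 min root peaks. Of the members found in just 1 list of the pair, 95.9% (90.8 to 98.7%) were in the ABA list in seedlings, 96.1% (88.9 to 99.2%) in mesophyll and 78.6% (68.3 to 86.8%) in guard cells. Among the gained peaks with −log10 p under 5 these shares were 93.3%, 93.3% and 75.5%, among the weak other peaks 47.7%, 37.3% and 26.4%, and among all other 45 min peaks 57.3%, 47.2% and 37.1%. At 24 h in guard cells, 56 members were in the ABA list alone (14.7%, against 3.42% of all 45 min peaks) and 12 in the control list alone. The 4 h and 24 h comparisons share the guard cell control list. The seedling, mesophyll and guard cell lists play no part in the rule, but whole seedlings contain roots. Members were chosen for absence from control roots, and the other peaks for presence there. Where a control list shares sites with control roots, this choice bears on the shares above, and by how much was not tested. The size of the imbalance also rests on 1 pooled list per group.

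Mutant guard cells did not show this imbalance in the lists as deposited. The mutant ABA list held 141 members (36.9%) and the mutant control list 144 (37.7%). In the ABA list alone were 15 (3.93%, against 3.52% of all 45 min root peaks), in the control list alone 18, and in both 126. Of the members in just 1 list, 45.5% (28.1 to 63.6%) were in the ABA list, next to 50.1% of the other 45 min peaks and 42.4% of the weak ones. Whether the genotypes differ was not tested, with 1 list per group. Of the 66 members that WT guard cells held with 4 h of ABA and not with vehicle, 10 (15.2%, 7.51 to 26.1%) were in the mutant ABA list and 2 in the mutant control list. For the other 45 min peaks with that WT pattern, the mutant ABA list held 319 of 715 (44.6%) and the mutant control list 46. For the weak ones among them, the mutant ABA list held 63 of 144 (43.75%). The 66 were absent from control roots by choice, and these other peaks were present there. How this bears on the contrast was not tested. The 139 members that both WT guard cell lists held were also mostly in the mutant, 125 in its ABA list and 129 in its control list.

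**Figure D2:**
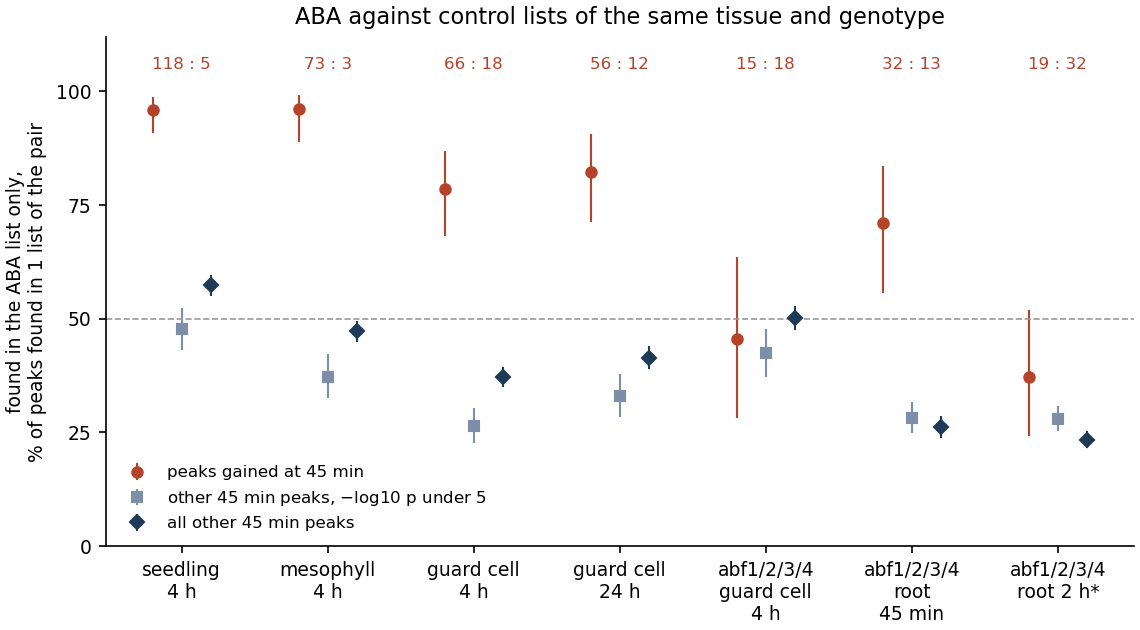
Percent found in the ABA list alone, of all 45 min root peaks found in just 1 list of an ABA and control pair (vertical axis), for gained peaks, other peaks with −log10 p under 5 and all other peaks; bars are exact 95% intervals, the dashed line is an even split, and the numbers above give gained peaks in the ABA list alone and in the control list alone. Gained peaks stood at 78.6 to 96.1% in the 3 WT tissues at 4 h and at 45.5% in abf1/2/3/4 guard cells. They were chosen for absence from WT control roots, and the other peaks for presence there.

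The guard cell lists made under different CO2 also split the gained peaks unevenly, over fewer peaks. The list at 100 ppm held 153 (40.1%) and the list at 1000 ppm held 134 (35.1%). At 100 ppm alone were 25 (6.54%, against 2.47% of all 45 min root peaks), at 1000 ppm alone 6, and in both 128. Of the members in just 1 of these lists, 80.6% (62.5 to 92.5%) were at 100 ppm, against 54.7% of the weak other peaks and 44.4% of all other 45 min peaks. Each CO2 level is 1 pooled list, and this pair was not recomputed under other settings. The choice of members by absence from control roots, and of the other peaks by presence there, may bear on these shares, which was not tested. Of the 66 members seen in WT guard cells with ABA and not with vehicle, 6 were found at 100 ppm and 1 at 1000 ppm, while 47 were found at 24 h of ABA and 40 in ABA-treated seedlings.

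Across tissues, 174 members (45.5%) were in the ABA list and not the control list of at least 1 of seedling, mesophyll and guard cell at 4 h, against 12.9% of the weak other peaks and 11.2% of all other 45 min peaks. In at least 2 tissues it was 72 (18.8%), against 1.98% and 1.83%, and in all 3 it was 11 (2.88%), against 0.258% and 0.231%. Among gained peaks with −log10 p under 5 these shares were 38.8%, 15.0% and 1.83%. The 11 lay in or nearest to HAB1, ELF6, AT4G23050, AT5G40800, AT3G02480, HAI1, DI21, CPK13, AT2G40130, PP2CA and AT5G14700. HAB1, HAI1 and PP2CA encode clade A PP2Cs, ELF6 a histone demethylase, CPK13 a calcium-dependent protein kinase, and DI21 a drought-induced protein. The 11 are named because of this pattern. At the other end, 78 members (20.4%) were in no list outside WT root, against 8.88% of the weak other peaks and 2.04% of all other 45 min peaks. All 3 control lists of the other tissues held 30 (7.85%), against 17.8% and 52.0%. Gained peaks with −log10 p under 5 gave 22.7% for the former share and 8.06% for the latter. Throughout these comparisons, members were chosen for absence from control roots and the other peaks for presence there. Where control lists share sites with control roots, this bears on all of these shares, and by how much was not tested.

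Near genes of ABA signalling, gained peaks were found at 13 of 94 listed genes (13.8%, 7.57 to 22.5%), inside the gene or within 1500 bp of it. Over all 27444 protein-coding genes the figure was 435 genes, or 1.59%. Listed genes carry peaks more often than others in general, since 94.7% of them had a control root peak in this window, against 75.7% of all genes. The count of 13 became 20 with the 45 min and control lists at equal length, 22 with all lists cut to the shortest, 7 with −log10 p of at least 5 in all lists and 5 with that limit on the members alone. In the same order, the 435 of all 27444 genes became 2108, 1614, 223 and 125. The share over all genes thus moved with the settings too. The 5 lists of signalling and of ABA synthesis and breakdown held 12 of the 13 genes (12 of 60). The lists were drawn up with earlier results of these data known.

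Of 14 receptor genes 1 had a gained peak: PYL9, at chr1:140393-140648, with a −log10 p of 3.87. It was found in both seedling and both WT guard cell lists at 4 h and in no mutant root list.

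The clade A PP2Cs, which hold the kinases inactive until ABA arrives, had gained peaks at 4 of 9 genes. HAB1 had 3, at chr1:27388791-27389661, chr1:27389791-27390127 and chr1:27393618-27394003. The first was the best placed gained peak of the whole list, with a −log10 p of 8.08 and 4666 bp to the nearest control peak. It had 12.9 in root at 2 h and 12.8 at 4 h, 7.98 in ABA seedlings, 7.78 in ABA mesophyll, 12.1 in guard cells at 4 h of ABA and 13.7 at 24 h, and 12.8 at 100 ppm CO2. No control list held it, and of the 5 mutant lists only the root list titled 2 h did, with 4.66. The other 2 were weaker at 45 min, both with 4.97, and were also in the control list of guard cells. In guard cells at 4 h and 24 h of ABA and at 100 ppm CO2, the first and second HAB1 peaks overlapped the same peak. The values given there for the first thus belong to a peak that also covers the second. That second peak was found in control guard cells of WT (7.93) and of the mutant (5.60), and in mutant guard cells with ABA (5.73).

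The ABI2 peak at chr5:23086961-23087242 had 4.91 at 45 min. It was found in ABA seedlings (5.38) and ABA mesophyll (7.15) and not in their controls, but in guard cells in both lists, with 13.7 after ABA and 15.8 in controls. At PP2CA the peak at chr3:3586829-3587105 had 4.78 at 45 min, 27.8 at 2 h and 7.54 at 4 h. It had 3.98 in ABA seedlings, 19.4 in ABA mesophyll, and 23.6 and 30.0 in guard cells at 4 h and 24 h of ABA. It was in no control list and in none of the 5 mutant lists, as was the HAI1 peak described above.

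Of 12 SnRK2 and ABA-activated MAPKKK kinase genes 2 had gained peaks. OST1, the SnRK2 kinase known for stomatal closure, had one at chr4:16271657-16272012 with 4.88 at 45 min, 7.38 at 2 h and 8.23 at 4 h in WT root. Guard cells had a peak there with ABA (15.7) and without (22.9), in WT as in the mutant (16.04 and 19.28), and mutant control roots had one too (4.46). In mesophyll neither list did. MAPKKK18, a kinase gene known to be induced by ABA, had a peak within 1500 bp at chr1:1468174-1468369 (6.004) and a neighbour at chr1:1467539-1467938 (6.30). Both overlapped a single peak at 2 h (13.1) and at 4 h (13.8). They were in the ABA lists of seedling and guard cell, in no control list and in no mutant list. The peak at chr1:1468174-1468369 was also in the guard cell list at 100 ppm CO2 (5.18), made without added ABA.

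Among 12 group A bZIP factors and AFP regulators 3 had gained peaks: ABF3 at chr4:16298381-16298612 (3.94), AFP1 at chr1:26040836-26041427 (4.78) and AFP3 at chr3:11382362-11382595 (4.10). ABF3 is 1 of the 4 factors that the mutant lacks, and AFPs are repressors that bind the ABI5 bZIP factor. All 3 were found in ABA mesophyll and ABA guard cells at 4 h and in none of the control or mutant lists. At 4 h in root only the AFP1 peak was found.

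Of 13 genes of ABA synthesis and breakdown 2 had gained peaks. NCED3, which encodes the dioxygenase that limits ABA synthesis, had one at chr3:4830745-4830869 (5.19) and a stronger one farther away at chr3:4829136-4829487 (6.37). Both were also found in guard cell controls (5.57 and 9.69) and neither in guard cells at 4 h of ABA. CYP707A2, which encodes an ABA 8′-hydroxylase, had one at chr2:12494124-12494515 (4.88), found in both ABA and control lists of seedling, mesophyll and guard cell.

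At the 19 ABA-induced protective and metabolic genes, 17 had a control root peak in the window, as did all 9 PP2C and all 12 kinase genes. No gained peak was found at these 19 (0 to 17.6%), an interval that includes the 1.59% of all protein-coding genes. Of 15 ABA-induced transcription factor genes 1 had a gained peak, MYB102 at chr4:11419711-11419895 (5.30), found in ABA mesophyll (10.8) and in guard cells with ABA (17.1) and without (15.7). None of 17 genes known to respond early to touch, wounding and handling had one (0 to 19.5%, which also includes 1.59%). All of these 17 had a control root peak, so a change of height there could not be seen with this rule.

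Taken over the 15 distinct gained peaks within 1500 bp of listed ABA genes, 14 were found in WT root at 2 h and 12 at 4 h. The mutant root lists held 3 of the 15 in all. Seedlings had 9 in the ABA list alone and 0 in the control list alone, mesophyll 10 and 0, and WT guard cells at 4 h 7 and 1. Mutant guard cells had 0 in the ABA list alone, 1 in the control list alone and 7 in both. These are few peaks, 3 of them at a single gene.

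**Figure D3:**
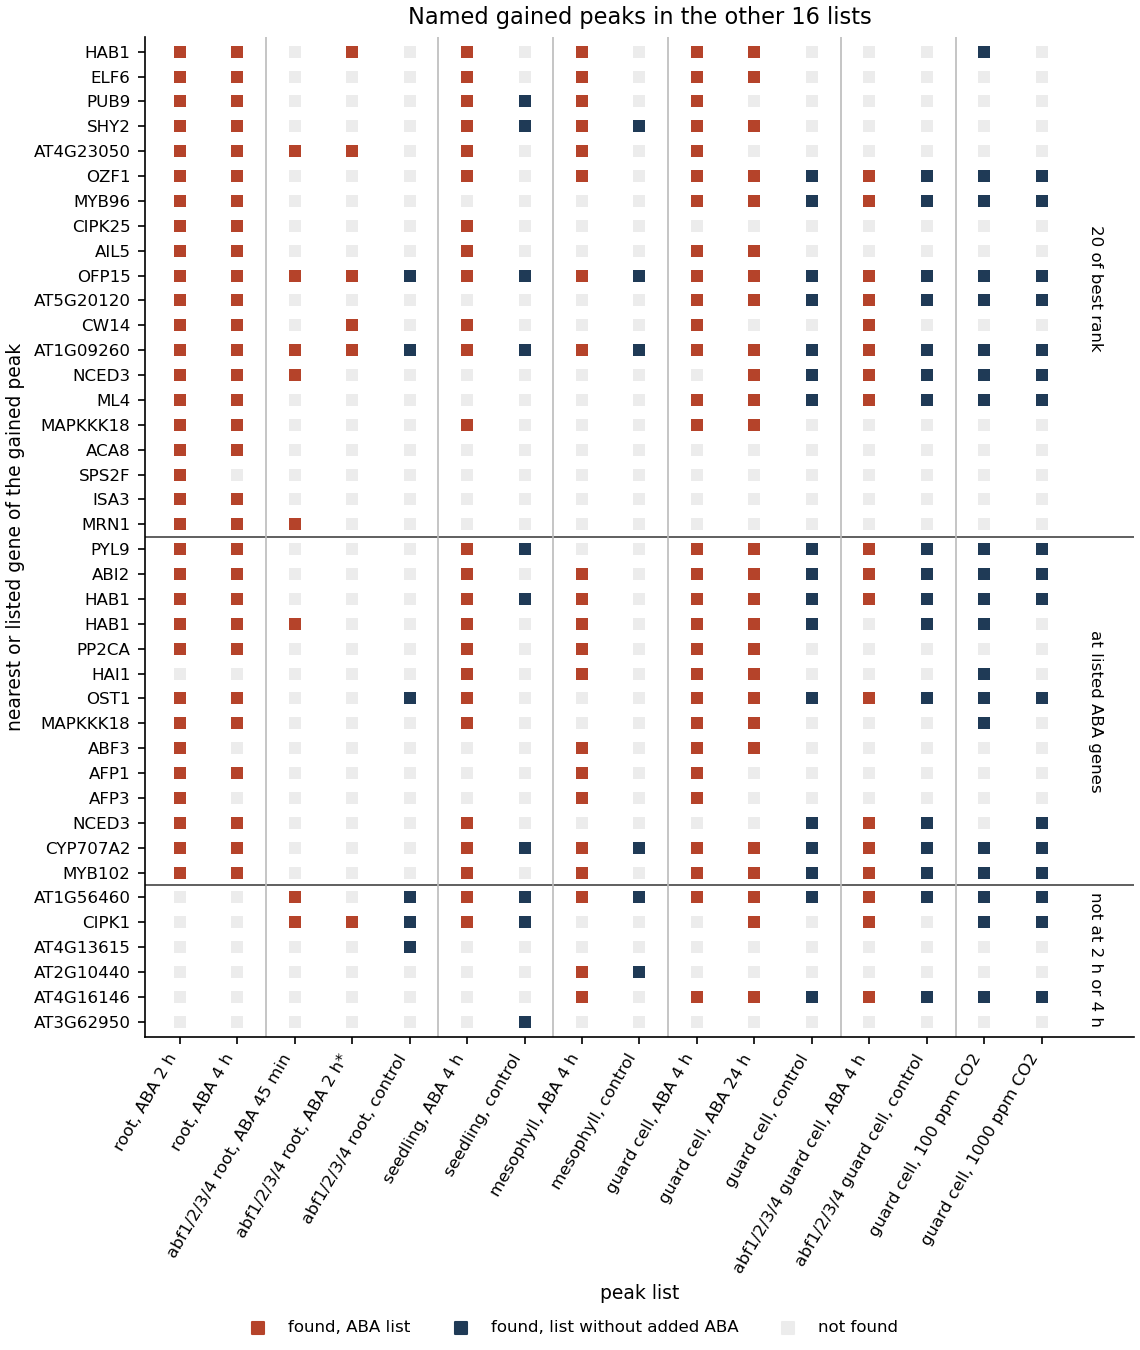
Presence (filled) or absence (pale) of 40 named gained peaks, by nearest or listed gene (rows), in the other 16 lists (columns); red marks lists with ABA and blue lists without added ABA, and the asterisk marks the mutant group whose labels give both 2 h and 4 hours. The upper block holds the 20 peaks of best rank, of which 20 were found in WT root at 2 h and 19 at 4 h; the lowest block holds peaks found at neither time.

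The 20 gained peaks of best rank had a −log10 p between 6.22 and 8.08 at 45 min. All 20 were found in WT root at 2 h and 19 at 4 h, the exception being a peak in SPS2F, a sucrose-phosphate synthase gene. The mutant root list at 45 min held 5 of the 20 and the mutant control list 2. ABA-treated seedlings held 12 and control seedlings 4.

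After HAB1 came a peak at chr5:1174740-1175542 near ELF6, with 7.85 at 45 min, 16.5 at 2 h and 15.3 at 4 h. It was in the ABA lists of seedling (6.77), mesophyll (4.204) and guard cells (6.53), and in no control or mutant list. The peak at chr3:2352341-2352633, nearest to PUB9, a U-box ubiquitin ligase gene, had 7.30 at 45 min, 25.4 at 2 h and 9.12 at 4 h, with 8.47 in ABA seedlings and 4.82 in control seedlings. It was in ABA mesophyll (7.47) and in guard cells at 4 h of ABA (5.56), and not in their controls. A peak at chr1:1130057-1131144 was the widest gained peak, with 1088 bp. Its nearest gene was SHY2, an Aux/IAA repressor of auxin signalling, and it had 7.15 at 45 min, 24.4 at 2 h and 14.3 at 4 h. Control mesophyll (7.17) and control seedlings (4.67) held it too, as did ABA mesophyll (9.45) and ABA seedlings (6.16). WT guard cells held it with ABA (14.3 at 4 h, 17.4 at 24 h) and not with vehicle.

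Several of the 20 were also guard cell peaks, whatever the treatment. The peak nearest to OZF1, a CCCH zinc finger gene, at chr2:8544616-8544927 had 6.98 in root at 45 min, with 18.7 in ABA guard cells and 26.4 in control guard cells. In seedling and mesophyll it was in the ABA lists (10.9 and 17.4) and not in the control lists. The peaks nearest to MYB96, a MYB factor of cuticular wax synthesis, AT5G20120 and ML4, a MEI2-like gene, were, like the OZF1 peak, in all 7 guard cell lists. In contrast, the peaks nearest to ACA8, a plasma membrane calcium pump, SPS2F, and ISA3, a starch debranching enzyme, were in no list outside WT root. The peak nearest to CIPK25, a kinase of calcium sensing, was outside root only in ABA seedlings (5.29). The peak near AIL5, an AP2-type factor, at chr5:23257452-23257728 was in the ABA lists of seedling (6.55) and guard cells (5.92 at 4 h, 5.27 at 24 h) and in no control or mutant list. Peaks near OFP15, an OVATE family gene, and AT1G09260 were in all of the other 16 lists, the control root list alone being without them.

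AT4G23050 held a peak at chr4:12083738-12084549 with 7.01 at 45 min, found in the mutant root after 45 min of ABA (4.47) and in the group titled 2 h (4.60), and absent from the mutant control. Outside root it was in the ABA lists of seedling (3.67), mesophyll (4.64) and guard cells (6.26). AT5G40800 held a peak at chr5:16334756-16335134 with 6.07 at 45 min, 26.8 at 2 h and 22.1 at 4 h, 10.96 in ABA seedlings, 16.7 in ABA mesophyll and 15.2 in ABA guard cells. No control or mutant list held that one. The peak near UGE5, a UDP-glucose 4-epimerase gene, at chr4:6718553-6718781 had 6.06 at 45 min and was in ABA seedlings (4.21) and ABA mesophyll (4.44), while guard cells held it with ABA (9.68) and without (4.65). CW14 was the nearest gene of a peak with 6.39 at 45 min that was in 3 ABA lists outside WT root and seedling: mutant root titled 2 h (3.79), WT guard cells at 4 h (4.23) and mutant guard cells (4.13). The peak nearest to MRN1, a marneral synthase gene, had 6.22 at 45 min, 9.77 at 2 h and 4.52 at 4 h, and was in the mutant root at 45 min (4.11).

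Gained peaks lay farther from genes than other peaks of the 45 min list. The summit, the highest point of a peak, was inside a protein-coding gene in 81 members (21.2%, 17.2 to 25.7%), outside but within 1 kb of one in 160 (41.9%) and beyond that in 141 (36.9%). The other 45 min peaks had 33.9%, 50.4% and 15.8% in these classes, and the weak ones 44.6%, 40.6% and 14.8%. The median distance to the nearest gene was 618.5 bp for gained peaks, 89 bp for all other peaks and 30 bp for the weak ones. With the 45 min and control lists at equal length, the share of members inside a gene was 32.4% and the share beyond 1 kb 22.9%. With all lists cut to the shortest these were 27.6% and 21.9%. The shares of the other peaks were not recomputed under these settings. Members were chosen for absence from control root peaks, and the other peaks for presence there. Control root peaks lay inside or within 1500 bp of 75.7% of all genes. How far this choice bears on the distances was not tested. Between 2 and 5 kb from a gene lay 60 members (15.7%), against 5.43% of the other peaks, and over 5 kb lay 9. Of the 30 members with −log10 p of 6 or more, 16 had their summit over 1 kb from a gene. The gene table gives no strand or exons, so promoters, UTRs and introns are not told apart here.

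**Figure D4:**
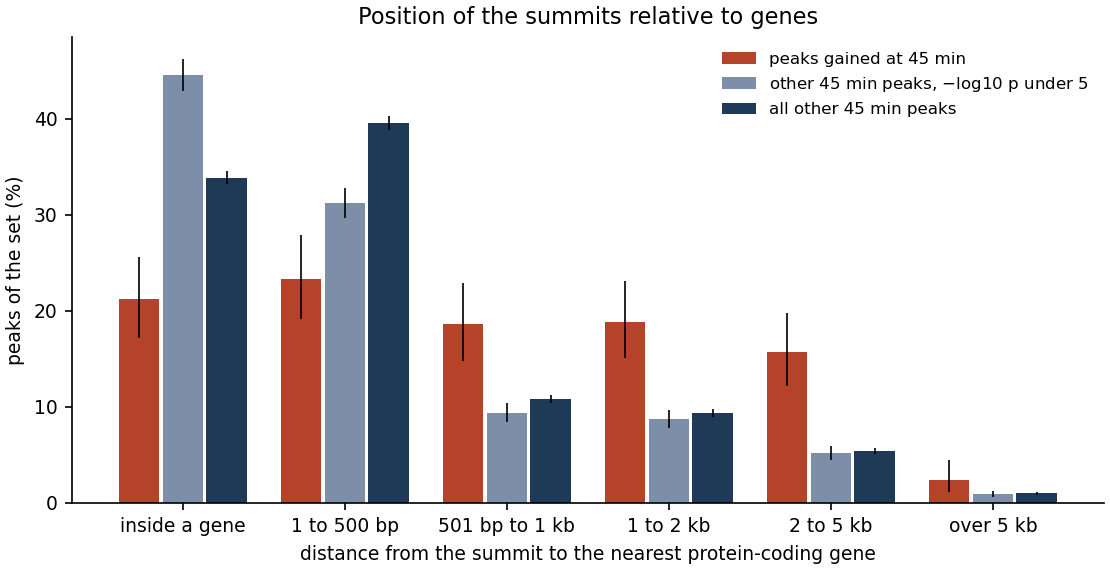
Percent of peaks (vertical axis) by distance from the summit to the nearest protein-coding gene (horizontal axis), for gained peaks, other 45 min peaks with −log10 p under 5 and all other 45 min peaks; bars start at 0 and lines are exact 95% intervals. Gained peaks had 21.2% of summits inside a gene, against 33.9% of all other peaks, and more of them in each class beyond 500 bp. They were chosen for absence from WT control roots, and the other peaks for presence there.

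The gained peaks were spread over all 5 chromosomes, with 85, 60, 73, 61 and 103 on chromosomes 1 to 5. Chromosome 5 held 27.0% (22.6 to 31.7%), against 23.1% of the other peaks. Within 1500 bp of a gene lay 291 members, and 91 lay farther away. Neighbouring gained peaks were under 1 kb apart in 22 cases, with 125 bp as the smallest distance. Of the 435 genes with a gained peak, 21 had more than 1, and 3 peaks were found at HAB1 and at NAC080, a NAC transcription factor gene. Genes with 2 included ACS7, an enzyme gene of ethylene synthesis, CAX3, a vacuolar proton and calcium exchanger, and MYB107, a MYB factor of suberin formation. These 4 genes were named after the counts had been seen. The 365 members found at 2 h overlapped 361 separate 2 h peaks in all, and the 360 found at 4 h overlapped 353. A member can overlap more than 1 later peak, so these counts do not give how many members merged.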

How the data were processed

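ATAC-seq (open chromatin) was measured in 53 samples of 18 groups. Per the submitters' processing notes, reads were handled with Trim Galore 0.6.5, cutadapt, FastQC, SAMtools, bedtools 2.30, Picard, Genrich and deepTools 3.5.0 on TAIR10. No role or order of these tools is given. The authors deposited 1 peak list per group, pooled over its samples. The deposited lists give each peak a −log10 p and an area score. Both come from the authors and served here to describe, rank or filter the peaks of a single list. The q column holds -1 throughout. Genrich's options and read depth are not given in the sources used here.

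Computed here, with Python 3.11.15, numpy 2.4.6, pandas 2.3.3 and scipy 1.17.1: a member is a 45 min peak with no base in common with a control root peak, and a peak is found in a list when at least 1 base is shared. Genes came from a RefSeq table of TAIR10.1 (27444 protein-coding genes). As a check of the build, 40.4% of the 45 min summits were no more than 150 bp away from an end of a gene, and shifting them by 5000 bp either way left 13.8% and 14.0%. Positions are peak coordinates of TAIR10, counted from 1. Intervals are exact at 95%. The overlap code was tested on simulated intervals.

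The members and gene lists were chosen with earlier results of these data known. Named were the 20 members of best rank, those within 1500 bp of a listed gene, those in neither later root list, the first 10 with ABA and without control in at least 2 tissues, and the widest and the closest to control. No test was run, since each group is 1 list. The planned motif comparison and the planned promoter, UTR and exon classes were not made, because no genome sequence, strand or exons were used here; summits were classed by distance to the gene instead.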

Additional observations from a re-analysis of the deposited data

Results flagged for a closer look

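The split between ABA and control lists was near even in mutant guard cells and leaned to ABA in WT guard cells. Of the gained peaks found in just 1 list of the pair, 45.5% were in the ABA list in abf1/2/3/4 guard cells, against 78.6% in WT guard cells at 4 h. The interval of the mutant value, 28.1 to 63.6%, includes an even split, and the difference was not tested, since each group is 1 pooled list. With the 45 min and control WT lists at equal length the values were 53.3% in the mutant and 59.5% in WT, and with all lists cut to the shortest 59.6% and 71.7%. The 2 ABA times of the mutant root also stood apart. The ABA share was 71.1% at 45 min and 37.3% in the group titled 2 h, both against the same mutant control list. This difference was not tested, the second interval (24.1 to 51.9%) includes an even split, and the time of the second group is uncertain.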

How the results depend on the processing

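Across 11 alternatives, 118 values were recomputed: 74 stayed within the 95% interval of the value reported (counts within 1.5 times), 42 moved outside and 2 crossed an even split that the interval of the value reported excludes. Both of these are the ABA share in the mutant root at 45 min, 43.1% with the 45 min and control WT lists at equal length and 43.75% with −log10 p of at least 5 in all lists; the cause was not tested. The number of members was 1620 at equal length, 1182 with all lists cut to the shortest, 193 with −log10 p of at least 5 in all lists and 109 with that limit on members alone. In the same order, ABA list genes with a member numbered 20, 22, 7 and 5, and all genes with a member 2108, 1614, 223 and 125. At equal length, the ABA share of members in just 1 list was 85.3% in seedlings, 77.1% in mesophyll and 59.5% in WT guard cells, the mutant root list at 45 min held 39.4% and 32.4% of summits were inside a gene. With all lists cut to the shortest, these were 82.6% in seedlings, 84.9% in mesophyll, 49.2% and 27.6%, and 66.2% were found at 2 h and 71.6% at 4 h. With −log10 p of at least 5 in all lists, 97.9% were found at 2 h and 9.84% in the 45 min mutant root. With that limit on members alone, 98.2% were found at 2 h and 97.2% at 4 h, and both seedlings and mesophyll gave 100.0%. Counting a match only at 50% of the bases or at the summit, or keeping members at least 300 bp from a control peak, moved 1 value outside these bounds, the share in mutant control roots, which was 19.7% at 50% of the bases. Where that interval includes an even split, values lay on both sides of it: between 43.5% and 59.6% in mutant guard cells, and between 20.8% and 57.1% (8 of 14, members with −log10 p of at least 5) in the mutant root titled 2 h. No paired analysis was possible because each group is 1 pooled list, and for the same reason no replicate could be left out. The planned motif alternative was not run. Read depth is unknown, so a peak missing from a list is not shown to be closed chromatin there.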
